A study of Mus musculus with 5 samples.

Results

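The conjugation enzymes described here are the glutathione S-transferases (GST), the UDP-glucuronosyltransferases (UGT) and the cytosolic sulfotransferases (SULT) measured in mouse hepatocytes between feeding and a day without food. Genes were taken by symbol: GST of the classes a, k, m, o, p, t and z, UGT of families 1 to 3 and SULT of families 1 to 5, with pseudogenes left out. A member needed 1 CPM or more in any library, where CPM is the UMI count of a gene per 1000000 nuclear-encoded UMIs, summed over hepatocytes (a UMI marks 1 captured mRNA molecule). Of 32285 genes in the table, 62 had such a symbol and 43 were members: 20 of 22 GST genes, 16 of 21 UGT genes and 7 of 19 SULT genes. The rule used no difference between libraries. Because the chemistry reads 1 end of each molecule, levels of different genes are compared as UMIs, with no correction for length. The members nearest the threshold were Gstp2 with at most 1.15 CPM, Ugt2b37 with 1.37 CPM and Ugt1a6b with 1.67 CPM, and the genes just under it were Sult1e1 with 0.621 CPM and Ugt1a2 with 0.503 CPM.

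Hepatocytes came from male wild-type C57BL/6J mice on normal chow, and each of 5 time points was 1 droplet library. All mice had been trained for 3 days to a rhythm of 16 h without food overnight and 8 h with food by day, and all received 20% sucrose in the drinking water beside food on the day of the experiment. The fed library was taken after 4 h of feeding, and the fasted libraries were taken 4, 8, 16 and 24 h after food and sucrose water had been removed. The clock hours were 13, 17, 21, 5 and 13, so fasting time and hour of day cannot be told apart except between the fed library and 24 h. The ages and the number of animals behind each library are not given in the sources used here.

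Conjugation enzymes attach a polar group to a drug, steroid, bile acid or bilirubin molecule so that it can be excreted. GST enzymes attach glutathione, a small sulfur-containing peptide. UGT enzymes sit in the endoplasmic reticulum and attach glucuronic acid from UDP-glucuronate. SULT enzymes attach a sulfonate group from the donor PAPS. All belong to the main detoxification functions of hepatocytes, and many are controlled by the nuclear receptors CAR and PXR, by the aryl hydrocarbon receptor and by the stress-activated factor NRF2. Drug-metabolising enzymes are also classic examples of liver zonation, with higher levels near the central vein than near the portal tract.

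Hepatocytes were barcodes with 1000 or more UMIs, 500 or more genes and 2 to 30% mitochondrial UMIs, which gave 7826 cells in the fed library and 4567, 2716, 9125 and 4576 cells at 4, 8, 16 and 24 h. Their sums held 33521626 to 45532684 nuclear-encoded UMIs per library. The label was checked on hepatocyte markers: Alb alone made up 76390 CPM of the fed sum. The median UMI count per cell ran from 4391 at 16 h to 15005 at 8 h, and the median mitochondrial share from 9.79% at 8 h to 19.1% at 4 h. Between 9 barcodes at 4 h and 216 in the fed library carried 3 or more markers of another cell type, mostly endothelial. The 12 endothelial markers summed to 109 CPM in the fed library and to between 14.5 CPM at 8 h and 39.1 CPM at 16 h in the fasted ones. The 5 of them at 10 CPM or more were called lower at every time, but entered only through their fed level. Of all genes 6.04%, 11.2%, 3.6% and 8.77% were called lower in time order. Of 28737 hepatocyte barcode sequences, 73 occurred in more than 1 library. No doublet caller was run here, so doublets remain among the cells. With 1 library per time point there was no test across samples. Intervals are given at 95%, exact Poisson for a CPM value and exact conditional binomial for a ratio. They cover counting error only and describe these libraries rather than the feeding states. A gene was called higher or lower when its CPM differed by 2-fold or more from the fed library and reached 10 CPM in either. All 4 comparisons share the fed library.

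The 3 families took different courses. Summed over the 16 UGT members, the level was 3521 CPM in the fed library, 2819 CPM at 4 h, 1713 CPM at 8 h, 3900 CPM at 16 h and 2536 CPM at 24 h. The 8 h sum was therefore the lowest, with a log2 ratio to fed of -1.04 (-1.05 to -1.03), and the 16 h sum the highest. The 20 GST members together held 4794, 4937, 4763, 3612 and 4108 CPM in time order, lowest at 16 h with a log2 ratio of -0.41. The 7 SULT members held 1260, 1471, 1169, 1339 and 1295 CPM, a narrower range than that of either other family.

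Scaling bears on these ratios. TMM scaling moved the median log2 ratio of all genes up by 0.21, 0.24, 0.061 and 0.18 for the 4, 8, 16 and 24 h libraries. The median went from -0.091, -0.078, -0.017 and -0.0998 to 0.12, 0.16, 0.044 and 0.077 in that order. It thus passed 0 each time and lay further from 0 at 4, 8 and 16 h, so TMM is an alternative here and not a reference. With it, the split of all called genes changed from 268 higher and 441 lower to 430 and 272 at 4 h, from 420 and 830 to 714 and 555 at 8 h, from 211 and 265 to 251 and 228 at 16 h, and from 348 and 645 to 516 and 464 at 24 h. The UGT ratio at 8 h ran from -1.08 to -0.80 over the 9 alternative settings, so the lower level held under each. The SULT sum at 8 h changed direction, from -0.11 to 0.13 with TMM, and the GST sum there went from -0.0094 to 0.23. The GST sum at 4 h went from 0.042 to -0.019 when genes above 1% of UMIs were left out of the total.

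**Figure D1:**
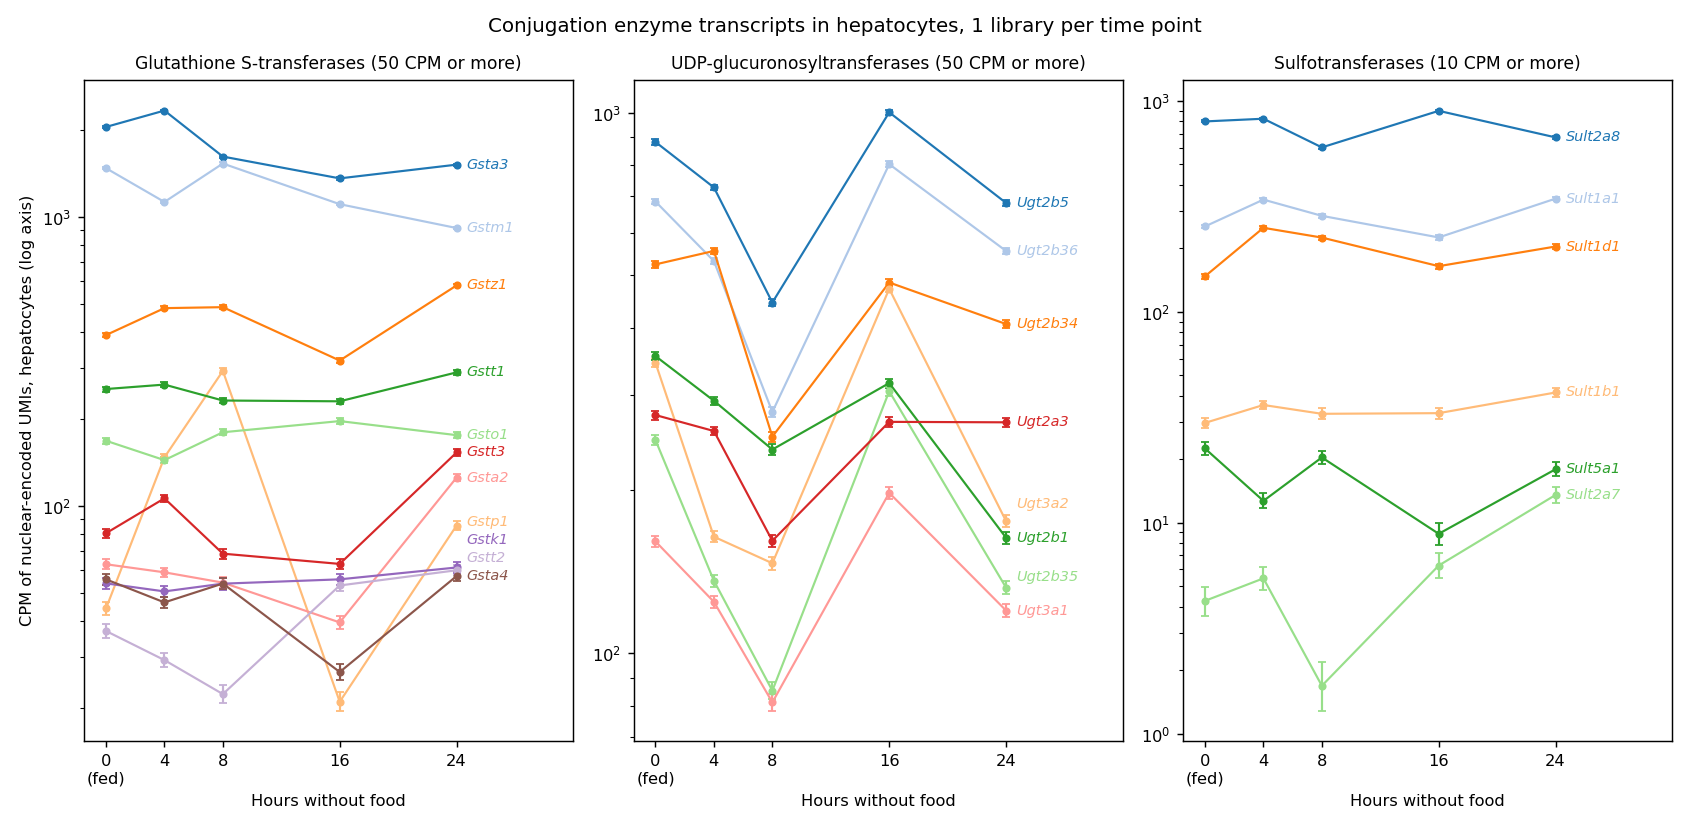
CPM of nuclear-encoded UMIs in hepatocytes (log axis) against hours without food, 1 library per point, for GST and UGT members that reached 50 CPM and SULT members that reached 10 CPM in any library; bars are exact 95% Poisson intervals. Of the 8 UGT lines, all but Ugt2b1 are lowest at 8 h, while Gstp1 is at its highest there, at 293 CPM.

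Of the members at 10 CPM or more in either library, 1 of 32 was called higher and 2 lower at 4 h, where 3.67% of all 7299 genes were called higher and 6.04% lower. At 8 h, 1 of 32 was higher (5.68% of all genes) and 5 were lower (11.2%). At 16 h, 1 of 33 was higher (2.87%) and 3 were lower (3.6%). At 24 h, 1 of 33 was higher (4.73%) and 4 were lower (8.77%). With 5 or fewer genes in each count, the shares themselves do not set the members apart from all genes. All 5 lower members at 8 h were among the 10 UGT members at 10 CPM or more, and all 10 of these stood below the fed library, with a median log2 ratio of -1.02 beside -0.08 over all genes. With TMM scaling 3 members were called lower at 8 h (7.19% of all genes). The balance at 24 h turned with the scaling, to 4 higher and 2 lower with TMM or median-of-ratios factors. All genes turned the same way, to 7.24% higher and 6.04% lower with TMM and 6.68% and 6.48% with median-of-ratios factors. There were 5 higher and 6 lower with a mitochondrial window of 0 to 30% (6.74% and 11.6% of all genes) or of 2 to 15% (6.82% and 10.0%). The members under 10 CPM in every library were Gsta1, Gstm3, Gstp2, Ugt1a5, Ugt1a6b, Ugt1a7c, Ugt1a9, Ugt2b37 and Sult1c2, with highest values between 1.15 CPM for Gstp2 and 9.58 CPM for Gsta1.

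**Figure D2:**
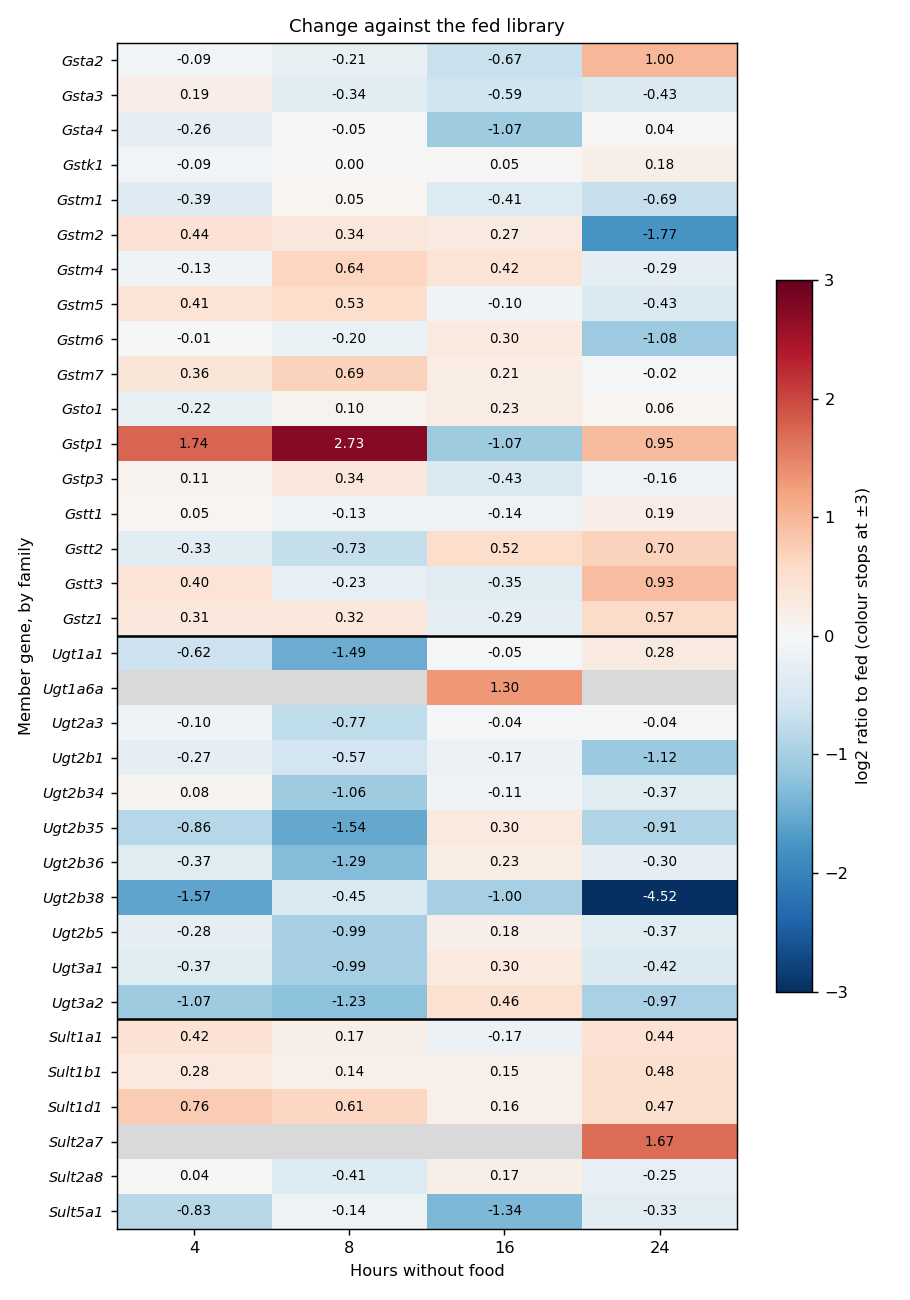
log2 ratio of each fasted library to the fed library (columns, hours without food) for members at 10 CPM or more in either library (rows, split by lines into GST, UGT and SULT from top to bottom); grey marks a pair under 10 CPM. The UGT block is below 0 throughout the 8 h column, and Gstp1 has the highest value, 2.73 at 8 h.

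Gstp1, the pi-class GST, had the widest upward range. It stood at 44.1 CPM in the fed library, 147 CPM at 4 h, 293 CPM at 8 h, 21.0 CPM at 16 h and 85.4 CPM at 24 h. It was called higher at 4 h (log2 ratio 1.74, 1.66 to 1.82) and at 8 h (2.73, 2.66 to 2.81), called lower at 16 h (-1.07, -1.20 to -0.94), and at 24 h its ratio of 0.95 stayed under the call. The 24 h ratio passed the call with TMM (1.13), median-of-ratios scaling (1.10) and a minimum of 3000 UMIs per cell (1.08). It also passed with mitochondrial windows of 0 to 30% (1.475) and 2 to 15% (1.71). The 3 libraries at 4, 8 and 24 h lay above the fed library and the 16 h library below it, and the direction held at each time over the 9 alternative settings. With a minimum of 3000 UMIs per cell the 16 h ratio was -0.58 and no longer called, and the 8 h ratio was 3.20. The 16 h call was also lost with the window of 2 to 15% (-0.92). The gene lies on chromosome 19 at 4035407 to 4037985 on the minus strand (GENCODE M21, build GRCm38), beside Gstp2 and Gstp3. Of the 50-base stretches in the last 500 bases of its transcripts, 75.2% also occur in Gstp2 or the pseudogene Gstp-ps, so its level is uncertain to that extent. Counted together, Gstp1 and Gstp2 held 44.3, 148.1, 294.1, 21.1 and 85.9 CPM, so the order of the libraries was the same for the pair. Gstp3 stayed between 8.89 and 15.2 CPM.

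Gstp1 also moved with the mitochondrial share of the barcode, and the libraries differed in that share. In the fed library it stood at 86.1 CPM in cells with 2 to 10% mitochondrial UMIs, 33.2 CPM in those with 10 to 20% and 29.4 CPM in those with 20 to 30%. At 4 h the same bands held 691, 152 and 108 CPM, and at 8 h they held 297, 289 and 142 CPM (the last from 20 cells and 11 UMIs). Within the 10 to 20% band alone, Gstp1 had log2 ratios to fed of 2.19, 3.12, -0.69 and 0.99 at 4, 8, 16 and 24 h, so the order of the libraries was the same there as in the whole. In the 2 to 10% band the 4 h value was above the 8 h value. The part of the mitochondrial share in the Gstp1 levels was not tested. When barcodes under 2% were kept, the ratio at 8 h was 2.15 in place of 2.73. Endothelial-marker barcodes of the fed library showed a Gstp1 UMI in 12.9% of 163 (exact 95% interval 8.16 to 19.0%) after thinning to 1000 UMIs, against 5.70% of 7663 other hepatocyte barcodes (unthinned 17.4%), so the share of fed cells with Gstp1 cannot be told from background. The median depths were 1723 and 4817 UMIs. The thinned share in the fasted libraries was 19.2%, 19.6%, 2.01% and 13.0% in time order (unthinned 60.1%, 73.8%, 7.20% and 42.9%). Endothelial-marker barcodes with a Gstp1 UMI numbered 0 of 7 at 4 h (exact 95% upper bound 41.0%), 1 of 9 (11.1%, up to 48.2%) at 8 h, 1 of 41 (2.44%) at 16 h and 3 of 18 (16.7%) at 24 h. The shares at 16 and 24 h were at or below these and cannot be told from background, and at 4 and 8 h there were too few such barcodes to set the background.

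**Figure D3:**
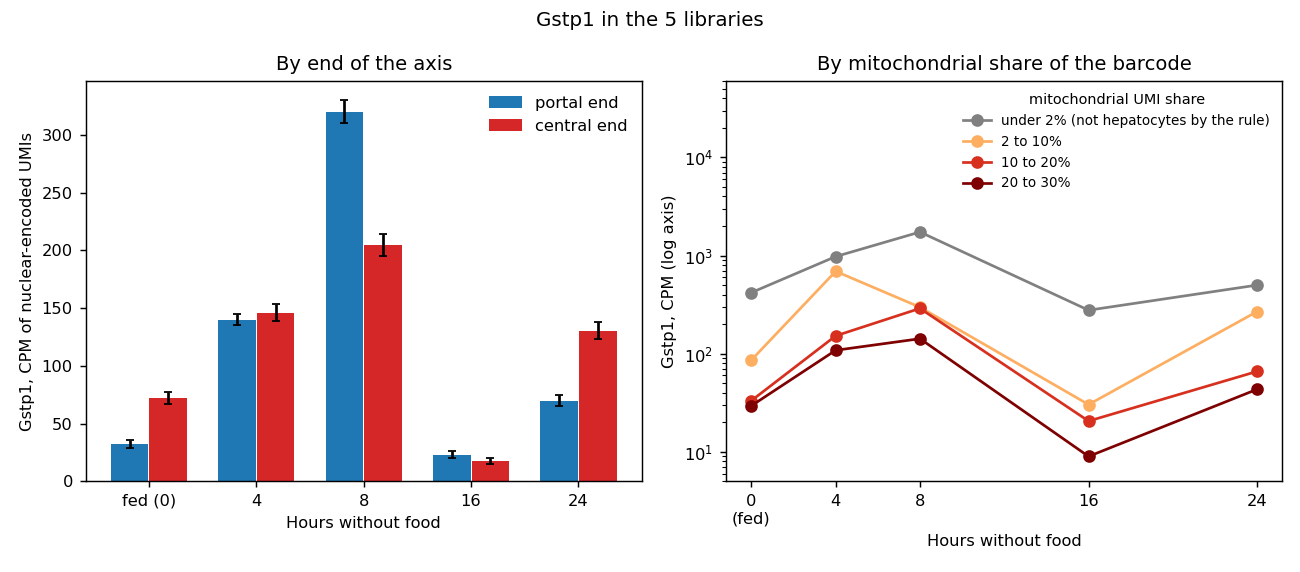
Left, Gstp1 CPM at the portal and central end of the lobule axis of each library, with exact 95% Poisson intervals; right, Gstp1 CPM (log axis) against hours without food by mitochondrial UMI share of the barcode. The central bar is the higher at 0 and 24 h and the portal bar at 8 h, and on the right the barcodes under 2% lie above every other band.

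Sequence at and before the start is shown for Gstp1 because it is the member with the highest ratio and holds an AP-1 site there, the binding motif of the Fos and Jun proteins, and for Gsta3 because it is the most abundant member and holds the core of an antioxidant response element, to which NRF2 binds. Gstm2 is shown as the most strongly zonated GST, with none of the motifs searched. The sequences are from RefSeq (GRCm38.p6), run 5′ to 3′ on the strand of the gene and end at its start, except that bases next to the start which GENCODE M21 places in an exon were left off (53 for Gstp1, where 20 were kept, and 33 for Gstm2). In Gstp1, 6 of the 7 bases of the AP-1 site lie in those 20, so by GENCODE M21 the site is mostly within an exon and by RefSeq it is before the start. Capitals mark the AP-1 site in Gstp1 (chr19:4037966-4038162, minus strand), a partial HNF1 site (on the reverse strand) and then the antioxidant response element core in Gsta3 (chr1:21240335-21240584, plus strand), and nothing in Gstm2 (chr3:107986454-107986670, minus strand).
Gstp1: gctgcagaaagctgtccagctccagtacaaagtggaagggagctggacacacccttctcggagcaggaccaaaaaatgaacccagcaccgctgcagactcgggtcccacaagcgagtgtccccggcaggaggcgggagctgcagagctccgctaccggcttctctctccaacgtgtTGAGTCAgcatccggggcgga
Gsta3: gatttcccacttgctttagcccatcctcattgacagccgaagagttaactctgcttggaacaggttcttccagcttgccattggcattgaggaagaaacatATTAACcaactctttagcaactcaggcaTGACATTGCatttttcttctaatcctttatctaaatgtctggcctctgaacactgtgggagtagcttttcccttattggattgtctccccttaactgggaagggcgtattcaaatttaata
Gstm2: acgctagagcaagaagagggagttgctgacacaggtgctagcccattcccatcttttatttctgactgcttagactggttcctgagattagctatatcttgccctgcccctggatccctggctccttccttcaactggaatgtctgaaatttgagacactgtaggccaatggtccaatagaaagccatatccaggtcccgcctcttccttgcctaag

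The motifs were searched on both strands of the 250 bases before the start, in 47 windows of the 38 members with an entry and in 32851 windows of all genes. The AP-1 site (TGANTCA) was in 17.0% of member windows and 6.75% of all windows, and the member genes with it were Gstm5, Gstp1, Gstp2, Ugt1a6a, Ugt2b1, Ugt2b35, Ugt2b37 and Ugt2b38. The antioxidant response element core (TGACNNNGC) was in 6.38% of member windows, those of Gsta3, Gstm5 and Gstm7, and in 10.2% of all windows. The partial HNF1 site (GTTAAT) was in 17.0% and 6.43%, the full HNF1 site, the partial one followed by any base and its reverse complement, in 0 of 47 and 0.00913%, the TATA box (TATAAA) in 12.8% and 12.4%, and the E-box (CACGTG), to which clock proteins bind, in 0 of 47 member windows and 6.02% of all. Neighbouring paralogues have related upstream sequence, so these windows are not independent, and a match of letters does not show binding.

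Gsta3 and Gstm1 made up most GST transcripts. Gsta3, an alpha-class enzyme known for detoxifying aflatoxin in mice, held 2047, 2333, 1617, 1359 and 1516 CPM and supplied 34.0 to 47.3% of the family sum. Gstm1, the main mu-class enzyme, stood at 1474, 1126, 1530, 1106 and 915 CPM. Neither was called at any time. The fed and 4 h libraries were highest for Gsta3, and 24 h was lowest for Gstm1.

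Among the other alpha-class genes, Gsta2 stood at 62.7, 58.8, 54.2, 39.5 and 125 CPM, and its log2 ratio of 0.997 at 24 h (0.93 to 1.07) was just under the call and passed it with TMM (1.17). In fed cells of 2 to 10% mitochondrial share it held 79.3 CPM, and at 24 h such cells held 283 CPM (log2 ratio 1.84). In the bands of 10 to 20% and 20 to 30% the ratios were 0.87 (58.4 and 106 CPM) and 0.78 (55.6 and 95.4 CPM), both under 2-fold. Its transcript end is 51.0% shared with other genes, and Gsta1 and Gsta2 together held 65.9, 66.4, 63.8, 41.0 and 131 CPM. Gsta4, which conjugates products of lipid peroxidation, stood at 55.6, 46.3, 53.8, 26.6 and 57.1 CPM and was called lower at 16 h only (log2 ratio -1.07, -1.18 to -0.95). That call was lost with a minimum of 3000 UMIs per cell (-0.98). The 16 h library was thus the lowest of the 5 for Gsta2, Gsta3, Gsta4 and Gstp1.

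The mu-class genes lie in 1 cluster on chromosome 3 (107895821 to 108044894), and all 7 of its members had their lowest value at 24 h. Gstm2 stood at 12.3, 16.7, 15.5, 14.8 and 3.59 CPM, called lower at 24 h (log2 ratio -1.77, -2.06 to -1.49), where it entered only through its fed level. Gstm6 stood at 33.5, 33.4, 29.2, 41.1 and 15.8 CPM, called lower at 24 h as well (-1.08, -1.23 to -0.94), a call lost with TMM (-0.91) and median-of-ratios scaling (-0.94). Gstm3, named here after its values were seen, stood at 6.32, 7.18, 7.69, 6.20 and 1.62 CPM, too low for a call. Gstm4 stood at 19.1, 17.4, 29.8, 25.5 and 15.6 CPM, and Gstm5 and Gstm7 lay between 7.93 and 49.8 CPM with no call. All 6 mu-class genes at 10 CPM or more were below the fed library at 24 h, with ratios from -1.77 for Gstm2 to -0.02 for Gstm7.

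The theta, zeta, omega and kappa classes had no called member under the total-count scaling with the main cell filter. Gstz1, which also isomerises maleylacetoacetate in tyrosine breakdown, stood at 390, 483, 487, 318 and 579 CPM. Gstt1, a theta-class enzyme that acts on small halogenated compounds, stood at 254, 263, 231, 230 and 290 CPM, and its neighbour Gstt3 at 80.3, 106, 68.3, 62.9 and 153 CPM. Gsto1, an omega-class thiol transferase, stood at 168, 144, 180, 196 and 176 CPM. Gstk1 and Gstt2 lay between 22.3 and 61.2 CPM. At 24 h Gstt3 had a log2 ratio of 0.93, which passed the call with TMM (1.11) and median-of-ratios scaling (1.07) and with a mitochondrial window of 2 to 15% (1.05). Gstt2 passed it at 24 h with windows of 0 to 30% (1.23) and 2 to 15% (1.13). For all but Gsto1 the 24 h library was the highest.

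The UGT2 genes and Ugt3a2 made up most UGT transcripts. Ugt2b5 was the most abundant, at 883, 727, 445, 1001 and 681 CPM, and its ratio of -0.99 at 8 h (-1.01 to -0.96) was just under the call. Ugt2b36 stood at 685, 531, 279, 803 and 555 CPM and Ugt2b34 at 524, 555, 252, 485 and 406 CPM. Ugt2b35 stood at 248, 136, 85.2, 305 and 132 CPM. These enzymes of steroid and bile acid glucuronidation all had their lowest value at 8 h, where Ugt2b36 (log2 ratio -1.29), Ugt2b34 (-1.06) and Ugt2b35 (-1.54) were called lower. Ugt2b1 stood at 354, 293, 238, 316 and 163 CPM, so its lowest library was 24 h (-1.12, called lower), not 8 h. With TMM the calls of Ugt2b34 at 8 h (-0.82) and Ugt2b1 at 24 h (-0.94) were lost, and likewise with median-of-ratios scaling (-0.86 and -0.97). Ugt2a3, which glucuronidates bile acids, stood at 276, 258, 161, 268 and 267 CPM with no call.

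The pair of UGT3A genes, whose enzymes use sugars other than glucuronic acid, lies on chromosome 15 (9276888 to 9370955). Ugt3a2 stood at 344, 164, 147, 472 and 176 CPM and was called lower at 4 h (log2 ratio -1.07) and 8 h (-1.23), with -0.97 at 24 h. Both calls were lost with TMM (-0.86 and -0.99), and with median-of-ratios scaling that at 4 h (-0.92). Ugt3a1 stood at 161, 124, 81.1, 198 and 120 CPM, with -0.99 at 8 h. Both were highest at 16 h and lowest at 8 h, the order seen for Ugt2b5, Ugt2b35 and Ugt2b36.

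The 8 h difference in UGT was present within bands of mitochondrial share and within both ends of the lobule axis. In cells with 2 to 10% mitochondrial UMIs the UGT sum was 3115 CPM in the fed library and 1647 CPM at 8 h (log2 ratio -0.92), and in cells with 10 to 20% it was 3607 and 1784 CPM (-1.02). At the portal end of the lobule axis described further on, the 11 UGT members that reached 10 CPM in any library had a median ratio of -1.11 at 8 h, and at the central end -1.01. At 4 h and 24 h the UGT sum was also below fed in every band, with ratios of -0.97, -0.48 and -0.82 at 4 h and -1.05, -0.53 and -0.76 at 24 h. The UGT sum itself was higher in each higher band of mitochondrial share in every library but that of 8 h, with 5566 CPM in fed cells with 20 to 30%, which rests on 100 cells. At 8 h it was 1784 CPM with 10 to 20% and 1768 CPM in the 20 cells with 20 to 30%. The part of the mitochondrial share in the UGT differences was not tested beyond these bands.

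Ugt2b38 had the lowest ratio of any member. It stood at 15.9, 5.34, 11.6, 7.97 and 0.692 CPM, called lower at 4 h (log2 ratio -1.57, -1.79 to -1.36) and at 24 h (-4.52, -5.15 to -3.95), comparisons it entered only through its fed level. At 24 h this was 22.9-fold below fed, and rested on 26 UMIs, while Ugt2b5 at the same time was 1.3-fold below. Both lie in the Ugt2b cluster, with Ugt2b37 and Ugt2a3 between them, on chromosome 5 (86889767 to 87424203). Their upstream windows are shown because the genes differed this much while the sequences were close: 212 of 240 aligned bases (88.3%) were identical, with 20 gap positions. Capitals mark the AP-1 site of Ugt2b38 (chr5:87424204-87424453, minus strand). The Ugt2b5 window (chr5:87140341-87140590, minus strand) has none of the motifs searched.
Ugt2b38: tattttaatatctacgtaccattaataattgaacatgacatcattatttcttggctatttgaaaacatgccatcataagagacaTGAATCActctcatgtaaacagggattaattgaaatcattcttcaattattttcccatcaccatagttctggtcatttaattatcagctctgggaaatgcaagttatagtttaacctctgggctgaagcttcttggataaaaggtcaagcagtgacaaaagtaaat
Ugt2b5: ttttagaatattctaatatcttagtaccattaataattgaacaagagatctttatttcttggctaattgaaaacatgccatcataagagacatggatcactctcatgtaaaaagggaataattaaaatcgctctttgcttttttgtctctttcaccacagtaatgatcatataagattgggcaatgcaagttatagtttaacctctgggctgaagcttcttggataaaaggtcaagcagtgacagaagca

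The Ugt1a genes share their last exons, and for 8 of the 9 all of the last 500 transcript bases occur in the others, so 3′ counts cannot tell them apart and only their sum is firm. The 6 Ugt1a members together held 28.9, 24.4, 11.7, 42.3 and 35.2 CPM (chromosome 1, 88055388 to 88220002, for the whole locus). The sum was lowest at 8 h, with a log2 ratio of -1.3 (-1.47 to -1.13). As counted, Ugt1a1, the bilirubin-conjugating enzyme, stood at 13.0, 8.43, 4.61, 12.6 and 15.8 CPM and was called lower at 8 h (-1.49), entering only through its fed level. That call was lost with a minimum of 3000 UMIs per cell, where the fed level was 9.55 CPM and the ratio -1.03. Ugt1a6a, which acts on phenols, stood at 6.77, 7.69, 1.39, 16.7 and 9.47 CPM and was called higher at 16 h (1.3), a comparison it entered only through its 16 h level.

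Among sulfotransferases, Sult2a8, a liver enzyme of bile acid sulfation, stood at 800, 824, 603, 898 and 672 CPM and supplied 51.6 to 67.1% of the family sum. Sult1a1, a phenol sulfotransferase, stood at 254, 341, 285, 225 and 344 CPM. Sult1d1, which acts on catecholamines and other amines, stood at 147, 250, 225, 165 and 204 CPM. None of the 3 was called: Sult2a8 had the low 8 h value seen for the UGT genes, whereas Sult1a1 and Sult1d1 were above fed there (0.17 and 0.61 on the log2 scale). Sult1b1, known for thyroid hormone sulfation, ran from 29.7 to 41.5 CPM. Sult5a1 stood at 22.5, 12.7, 20.4, 8.86 and 17.9 CPM and was called lower at 16 h (-1.34, -1.54 to -1.15), entering only through its fed level. Sult2a7 stood at 4.26, 5.45, 1.69, 6.26 and 13.5 CPM and was called higher at 24 h (1.67, 1.41 to 1.93), again through its 24 h level alone.

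Position along the lobule was read from a Cyp2f2 to Cyp2e1 axis: cells of a library were ranked by the share of Cyp2e1, a central gene, in their Cyp2e1 and Cyp2f2 UMIs, and then divided into 3 parts of equal size, of which the outer ones are the portal and the central end. Cells with no Cyp2e1 UMI made up 36.9%, 14.3%, 55.1%, 28.9% and 59.1% of the placed cells in time order. At 0, 8 and 24 h the portal end was therefore drawn at random from these tied cells, and the middle part held cells of the same kind. A member was called central or portal at a 1.5-fold difference with 10 CPM at either end. Other landmark genes followed the axis: 11 of 11 central landmarks at 10 CPM or more were central at 0, 4, 8 and 16 h, but 8 of 10 were at 24 h. Of portal landmarks 9 of 9 were portal from 0 to 16 h, but only 2 of 9 at 24 h (median log2 ratio -0.41). The whole axis was thus weaker at 24 h, with 1269 CPM of Cyp2f2 at the central and 1818 CPM at the portal end. Central cells were the shallower ones, with a median of 2645 nuclear-encoded UMIs against 4807 in portal cells of the fed library and 2631 against 15590 at 4 h. In the fed library 6.01% of central and 0.736% of portal cells carried markers of another cell type. The part of depth in the ratios was not tested.

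Conjugation enzymes were called central more often than portal up to 16 h. Called central were 9 of 33 members in the fed library (4.59% of all genes), 10 of 31 at 4 h (5.03%), 10 of 32 at 8 h (2.93%), 9 of 33 at 16 h (4.91%) and 2 of 30 at 24 h (3.15%). Called portal were 2 (1.61% of all genes), 1 (4.0%), 3 (1.9%), 3 (2.23%) and 1 (1.05%). The central share of members was thus above that of all genes in each library up to 16 h. Of the called members, 4 reached 10 CPM only at the end where they were higher, so that they could enter only as different: Gstm2 and Gstm3 on the central side from 0 to 16 h, Ugt2b38 on the portal side at 0, 8 and 16 h, and Sult5a1 on the portal side at 4, 8 and 16 h. Gstm3 in these 4 libraries, and Ugt2b38 and Sult5a1 at 16 h, were also under 10 CPM in the whole library. With 10 CPM required in the whole library instead, an alternative added after seeing the data, 8 of 32, 9 of 30, 9 of 31, 8 of 29 and 2 of 30 members were central in time order, beside 3.22%, 4.44%, 2.58%, 4.23% and 2.89% of all genes. With that setting 1 member was portal at 16 h (2.09% of all genes). The counts depended on the setting. With a mitochondrial window of 0 to 30%, 13 of 33 members were central in the fed library (14.2% of all genes) and 14 of 32 at 4 h (17.4%), where 5 were portal (32.9%). With one of 2 to 15%, 13 of 33 were central at 4 h (16.2%) and 3 portal (32.1%). The central share of members stayed above that of all genes there, but by a smaller factor. At 24 h the window of 0 to 30% gave 8 central and 10 portal of 32 members (18.2% and 34.8% of all genes), that of 2 to 15% gave 8 and 7 of 31 (15% and 43.5%), and the outer parts of an axis of 5 parts gave 7 and 2 of 31 (9.0% and 7.72%). Without barcodes that carried markers of another cell type, no central count moved by more than 1.5 times. With a minimum of 3000 UMIs per cell, 4 of 32 members were central in the fed library, where 1.91% of all genes were, and 0 of 30 at 24 h, where 0.791% of all genes were.

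**Figure D4:**
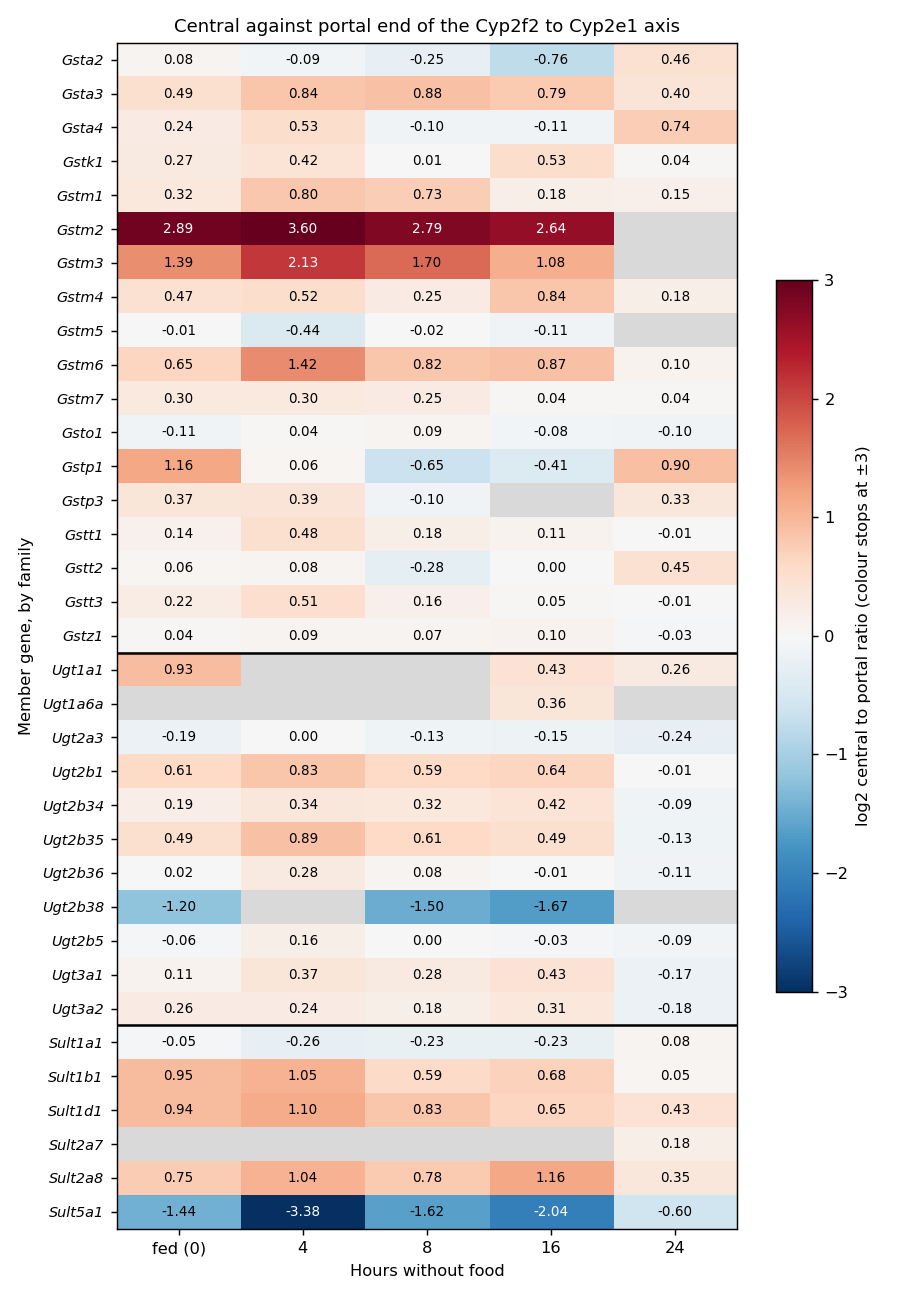
log2 ratio of the central to the portal end of the lobule axis in each library (columns, hours without food) for members at 10 CPM or more at either end (rows, split by lines into GST, UGT and SULT from top to bottom); grey marks a pair under 10 CPM. Gstm2 is the most central row up to 16 h and Sult5a1 the most portal row in every library, and most values at 24 h are nearer 0.

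Gstm2 had the highest central to portal ratio of the members up to 16 h, although it met the 10 CPM minimum through its central end alone and at 24 h at neither. Its portal and central ends held 4.65 and 34.5 CPM in the fed library, 4.47 and 54.2 CPM at 4 h, 6.03 and 41.6 CPM at 8 h, 5.32 and 33.1 CPM at 16 h, and 2.69 and 6.70 CPM at 24 h. The log2 ratio was 2.89 (2.48 to 3.31), 3.60, 2.79 and 2.64 up to 16 h. Against fed, the 24 h ratio of Gstm2 was -0.79 (-1.44 to -0.16) at the portal end and -2.36 (-2.78 to -1.97) at the central end. In 5 equal parts of the fed axis Gstm2 held 4.47, 4.47, 5.61, 11.3 and 47.6 CPM from portal to central, so the level was high in the last part alone. Central landmarks were themselves low at 24 h: 9 of 12 were called lower against fed, with a median log2 ratio of -2.03.

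Among the other mu-class genes, Gstm6 had a ratio of 0.65, 1.42, 0.82 and 0.87 from 0 to 16 h, called in these 4 libraries. Gstm3 had 1.39, 2.13, 1.70 and 1.08, but it was under 10 CPM in every whole library and entered only through its central end, which held 12.2, 17.7, 15.9 and 10.1 CPM. Gstm5 (-0.01, -0.44, -0.02 and -0.11) and Gstm7 (0.30, 0.30, 0.25 and 0.04) were not called in any of them. Gsta3 was called central at 4, 8 and 16 h (0.84, 0.88 and 0.79) and Gstm1 at 4 and 8 h (0.80 and 0.73). Gstm4 was called at 16 h (0.84) and Gsta4 at 24 h (0.74), while Gsta2 was called portal at 16 h (-0.76). Gstz1 was nearly flat, between -0.03 and 0.10.

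Gstp1 changed side. The portal and central ends held 32.2 and 72.1 CPM in the fed library, 140 and 146 CPM at 4 h, 320 and 204 CPM at 8 h, 22.9 and 17.2 CPM at 16 h, and 70.0 and 130.4 CPM at 24 h. It was called central in the fed library (log2 ratio 1.16, 0.98 to 1.34) and at 24 h (0.90, 0.77 to 1.02) and portal at 8 h (-0.65, -0.73 to -0.57). From the fed to the 8 h library the portal end differed by 3.31 on the log2 scale and the central end by 1.5. With barcodes under 2% mitochondrial UMIs kept, the 8 h ratio turned to 0.55. Without barcodes that carried other markers it was -0.64, but at 8 h these were only 0% of portal and 0.445% of central cells. In the fed library they were 0.736% and 6.01%. Gstp1 there held 150 CPM in endothelial-marker barcodes and 43.2 CPM in other hepatocyte barcodes. The fed ratio without such barcodes is not given here. The central call of the fed library was lost with a minimum of 3000 UMIs (0.074), and that of 24 h with 10 or more Cyp2e1 and Cyp2f2 UMIs per cell (0.15).

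Among sulfotransferases, Sult2a8 was called central from 0 to 16 h (0.75, 1.04, 0.78 and 1.16), as were Sult1d1 (0.94, 1.10, 0.83 and 0.65) and Sult1b1 (0.95, 1.05, 0.59 and 0.68). At 24 h their ratios were 0.35, 0.43 and 0.05. Sult5a1 was the opposite, called portal in all 5 libraries, with 28.7 CPM (portal) against 10.6 CPM (central) in the fed library and ratios of -1.44, -3.38, -1.62, -2.04 and -0.60. Sult1a1 was flat, between -0.26 and 0.08.

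Among UGT genes, Ugt2b1 was called central from 0 to 16 h (0.61, 0.83, 0.59 and 0.64) and was at -0.01 at 24 h, Ugt2b35 was called at 4 and 8 h (0.89 and 0.61) and Ugt1a1, as counted, in the fed library (0.93). Ugt2b38 was called portal at 0, 8 and 16 h (-1.20, -1.5 and -1.67), the opposite of Ugt2b1, although both lie in 1 cluster. Ugt2b5 and Ugt2b36, the most abundant, stayed between -0.11 and 0.28. The sum over UGT members had a ratio of 0.13, 0.32, 0.19, 0.19 and -0.12 in time order, and with barcodes under 2% mitochondrial UMIs kept it turned to -0.14 in the fed library and -0.50 at 4 h, where Ugt2b1 turned to -0.13.

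Genes that supply the glucuronic acid donor were all below the fed library at 8 h. Ugdh, which makes UDP-glucuronate, stood at 361, 156, 133, 425 and 131 CPM, and Ugp2, which makes its precursor UDP-glucose, at 657, 373, 207, 530 and 500 CPM. The carriers of UDP-sugars Slc35d1 and Slc35d2 stood at 262 and 55.5 CPM in the fed library and at 133.5 and 17.8 CPM at 8 h. The 8 h value was the lowest of the 5 libraries for Ugp2 and both carriers, and Ugdh was marginally lower at 24 h. Of these 4 genes 1, 3, 0 and 1 were called lower at 4, 8, 16 and 24 h (6.04%, 11.2%, 3.6% and 8.77% of all genes) and none higher, with median log2 ratios of -0.64, -1.54, 0.16 and -0.44. At 16 h, 3 of the 4 were above the fed library.

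Of the glutathione genes, Gclc and Gclm, the subunits of the rate-limiting ligase, stood at 353, 365, 260, 533 and 285 CPM and at 431, 407, 293, 574 and 398 CPM, both lowest at 8 h and highest at 16 h with no call. In the glutathione list, 1 of 8 genes at 10 CPM or more was called at 8 h (Cbs, 183 CPM fed and 505 CPM at 8 h). Of the PAPS genes, the synthases differed: Papss1 stood at 28.1, 10.2, 7.42, 9.64 and 5.43 CPM and was called lower at each time, and Papss2, the more abundant, at 155, 248, 201, 121 and 234 CPM. At 8, 16 and 24 h Papss1 entered only through its fed level. Mgst1, the microsomal GST, was more abundant than any member, at 4205, 4089, 3224, 5237 and 3111 CPM, with no call. Mgst3 was called lower at 8 h (16.8 CPM fed, 6.56 CPM at 8 h), entering only through its fed level. Among genes of other conjugation reactions, Nnmt, which methylates nicotinamide, stood at 106, 213, 253, 76.0 and 221.5 CPM, called higher at 4, 8 and 24 h. The canalicular exporter Abcc2 stood at 281, 276, 210, 466 and 319 CPM. Its sinusoidal counterpart Abcc3 stood at 150 CPM fed and 45.0 CPM at 8 h, the 1 exporter called there. Gusb, which reverses glucuronidation, was not called at any time, and neither was Arsa or Arsb.

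Of 10 regulators of these families, 1, 2, 0 and 3 were called higher at 4, 8, 16 and 24 h (3.67%, 5.68%, 2.87% and 4.73% of all genes), and 2 were called lower at 8 h (11.2% of all genes). Nr1i2, which encodes PXR, stood at 29.7, 60.9, 72.7, 34.1 and 62.7 CPM and was called higher at 4, 8 and 24 h. Nr1i3, which encodes CAR, stood at 91.9, 100.5, 78.4, 127 and 193 CPM, called higher at 24 h, and Nfe2l2, which encodes NRF2, at 54.0, 33.0, 26.3, 61.3 and 40.1 CPM, called lower at 8 h. The cytochrome P450 gene Cyp2b10, a classic CAR target, stood at 6.01, 45.2, 49.5, 6.80 and 5.77 CPM, and Por, the electron donor of those enzymes, at 159, 400, 738, 171 and 516 CPM. These were the 2 genes called higher at 4 and 8 h among 7 CAR, PXR and aryl hydrocarbon receptor targets. Cyp2b10 entered only through its fasted level at these times. Of the same targets Cyp2a5 was called lower at 8 h (154.7 CPM fed, 61.3 CPM at 8 h). At 24 h Por was called higher, and Cyp1a2, Cyp2a5 and Cyp2c29 were called lower (log2 ratios of -2.55, -2.12 and -2.86). Of the 5 NRF2 targets outside the 3 families at 10 CPM or more, none was called higher at any time. Hmox1 was called lower at 4, 8 and 24 h (13.6 CPM fed, 2.93 CPM at 24 h), entering only through its fed level. Metallothionein and immediate-early genes, which respond to stress, differed widely between the libraries: Mt1 stood at 111, 5308, 6149, 1452 and 1640 CPM and Fos at 8.26, 16.2, 0.68, 14.9 and 1.49 CPM. The acute-phase gene Saa1 stood at 382 CPM fed and 4880 CPM at 16 h, the library with the lowest Gsta2, Gsta4 and Gstp1, and 4 of 8 acute-phase genes were called higher there. At 4 h, where Gstp1 was above fed, 3 of 7 were called higher as well (Saa1 1148 CPM), and at 8 and 24 h none was higher and 3 of 7 were lower. The part of these responses in the members' levels was not tested.

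Barcodes with endothelial markers also held UMIs of the abundant GST genes. After thinning to 1000 UMIs, a Gsta3 UMI was found in 82.9% of fed hepatocytes (98.2% unthinned) and in 71.8% of the 163 endothelial-marker barcodes, and a Gstm1 UMI in 71.5% (95.7% unthinned) and 74.2%, so the Gstm1 share of hepatocytes cannot be told from background. Ugt2b5 was found in 57.8% (91.8% unthinned) and 16.0%, and Sult2a8 in 50.4% (86.9% unthinned) and 35.6%. The share in endothelial-marker barcodes was thus lower for Ugt2b5 than for the other 3 genes. Whether these UMIs came from free RNA, from doublets or from the cells themselves was not tested.

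Barcodes under 2% mitochondrial UMIs, which the cell rule leaves out, differed between the families. There were 2172, 5345, 576, 234 and 5400 of them in time order, with Alb at log2 ratios of -1.97, -2.28, -1.70, -1.41 and -2.72 to the hepatocytes of the same library. The UGT sum was lower in them by log2 ratios of -1.35, -1.68, -1.3, -0.96 and -2.06, and of 11 UGT members 10 or 11 were lower in each library. Most genes were: of 7701 genes at 10 CPM or more in the hepatocytes of any library, 67.3%, 70.8%, 78.6%, 63.9% and 68.3% were lower in these barcodes, with median log2 ratios of -0.36, -0.68, -0.87, -0.34 and -0.56. The GST sum was higher, at 0.56, 0.99, 0.21, 0.70 and 0.70, although 2 to 9 of 17 GST members were lower in a given library. The SULT sum had ratios of 0.077, 0.53, -0.53, 0.16 and 0.27. Gstp1 stood at 419, 976, 1736.5, 277 and 499.5 CPM in these barcodes, Gsta4 had ratios of 1.65, 2.61, 0.91, 1.74 and 2.27, and Mgst1 was lower in every library. What these barcodes are was not tested.

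**Figure D5:**
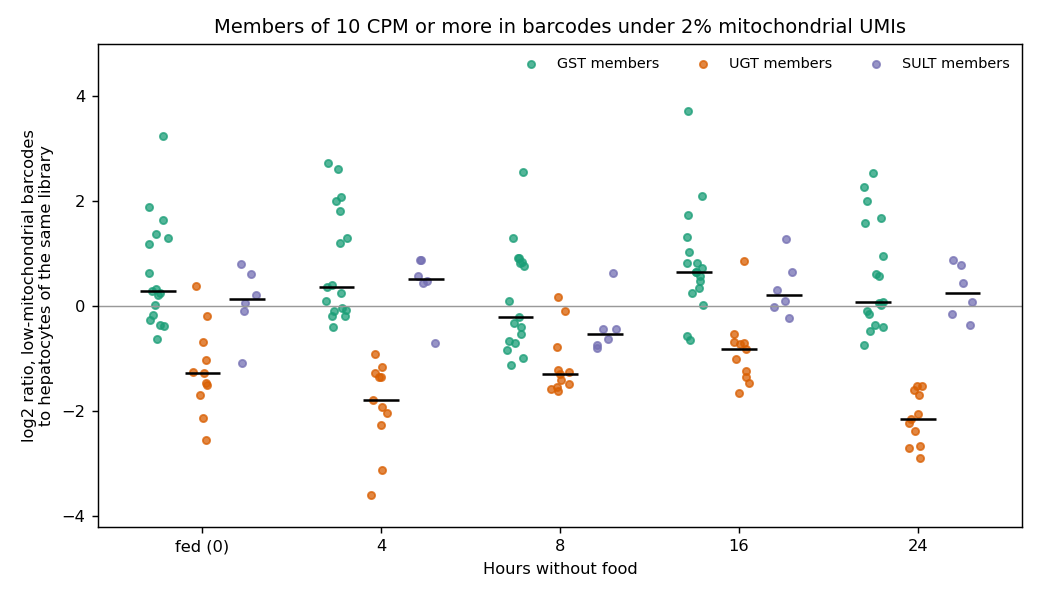
log2 ratio of CPM in barcodes under 2% mitochondrial UMIs to hepatocytes of the same library, by hours without food; points are members at 10 CPM or more in any library, coloured by family, and lines are family medians. UGT points lie mostly below 0, with medians from -2.14 at 24 h to -0.82 at 16 h, and the highest GST point is Gstp1 in every library.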

How the data were processed

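The authors deposited raw UMI counts for each barcode, made with Cell Ranger 6.0.1 on mm10 per the submitters' processing notes. How it treated reads that match several genes is not given in the sources used here. Of 32285 gene IDs, 32158 (99.61%) were found in GENCODE M21, the source of all positions.

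Hepatocyte UMIs were summed per library (33521626 to 45532684 nuclear-encoded UMIs) and scaled to CPM, and 1 library per time point allowed no test across samples. Calls need 10 CPM in either library and a fold of 2, or of 1.5 along the axis. Members of 100 CPM or more are given in every library, those of 10 to 100 CPM where called, others by range. The alternatives were UMI, mitochondrial, marker and expression filters, other scalings, folds and axes. Members and lists were chosen with earlier results of these data known. The ratio code was checked on simulated counts. Tools were edgeR 4.0.16 in R 4.3.3 (TMM factors only), scipy 1.17.1, numpy 2.4.6, matplotlib 3.10.9 and pandas 2.3.3 in python 3.11.15. 1 gene of the lists is not reported here.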

Additional observations from a re-analysis of the deposited data

Results flagged for a closer look

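Gstp1 lay on opposite sides of the lobule axis in different libraries. Its log2 central to portal ratio was 1.16 in the fed library and -0.65 at 8 h, and 0.90 at 24 h against -0.65 at 8 h. Each library is 1 sample, so the difference between libraries was not tested. With barcodes under 2% mitochondrial UMIs kept, the 8 h ratio was 0.55.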

How the results depend on the processing

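Under 9 alternatives the UGT sum stayed lower than fed at 4, 8 and 24 h, and Gstp1 kept its direction at each time. The counts of called members moved more, and the cause was not tested except where fewer genes or cells enter by construction. Where no share of all genes stands beside a count, that share is not given here, and the count does not set the members apart.

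A minimum of 3000 UMIs gave 2 higher members at 24 h (4.85% of all genes), 4 central at 0 h (1.91%) and 2 portal at 4 h (2.96%). It gave 0 central and 0 portal at 24 h (0.791% and 0.216%). A mitochondrial window of 0 to 30% gave 2 higher members at 4 h, 2 at 8 h and 5 at 24 h (3.61%, 5.29% and 6.74% of all genes), 5 portal at 4 h (32.9% of all genes), and 8 central and 10 portal at 24 h (18.2% and 34.8%). In that window the UGT axis ratio was -0.14 at 0 h and -0.50 at 4 h, Ugt2b1 was at -0.13 at 4 h and Gstp1 at 0.55 at 8 h. A window of 2 to 15% gave 2 higher members at 4 h and 5 at 24 h (4.74% and 6.82% of all genes), 3 portal at 4 h (32.1% of all genes), and 8 central and 7 portal at 24 h (15% and 43.5%), with axis ratios at 4 h of -0.20 for the UGT sum and -0.22 for Ugt2b1. Without barcodes of other markers there were 2 higher (4.89% of all genes) and 0 portal members at 24 h. Without the top 5% of barcodes by UMIs, an alternative added after seeing the data, there were 2 higher at 24 h (4.67% of all genes). Requiring 10 CPM in the whole library, also added after seeing the data, gave 1 portal member at 16 h (2.09% of all genes).

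Leaving genes above 1% of UMIs out of the total gave a GST ratio of -0.019 at 4 h and 2 higher members at 8 h. The mean of per-cell CPM gave 2 higher members at 4 h and 4 at 24 h, and 4 central and 0 portal at 24 h. TMM scaling gave 1, 3 and 2 lower members at 4, 8 and 24 h (3.56%, 7.19% and 6.04% of all genes). It gave 2 higher at 8 h and 4 at 24 h (9.88% and 7.24%), and a SULT ratio of 0.13 at 8 h. Median-of-ratios scaling gave 1 and 2 lower members at 4 and 24 h (4.13% and 6.48% of all genes). It gave 2 higher at 8 h and 4 at 24 h (8.71% and 6.68%), and a SULT ratio of 0.086 at 8 h.

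A minimum of 50 CPM gave 1 lower member at 4, 16 and 24 h, 0 higher at 16 and 24 h, 4, 6 and 5 central at 0, 8 and 16 h, 1 portal at 8 h and 0 portal at 0, 4, 16 and 24 h. A minimum of 1 CPM gave 4, 3 and 2 higher members at 4, 8 and 16 h, 4 and 9 lower at 4 and 8 h, 4 portal at 0 and 4 h, and 4 central at 24 h. A fold of 1.5 gave 2, 4 and 5 higher members at 4, 8 and 24 h and 5, 9, 6 and 7 lower in time order. These minima and folds change the calls of all genes as well. An axis fold of 2 gave 3, 6, 2, 3 and 0 central members and 0 portal at 24 h. The outer parts of an axis of 5 parts gave 7 central and 2 portal members at 24 h, a landmark score gave 4 central there, and cells with 10 or more Cyp2e1 and Cyp2f2 UMIs gave 2 portal at 4 h and 0 central at 24 h.

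No paired analysis was possible because each time point is 1 library. Depth limits members under 10 CPM, and nothing here measures the spread between animals.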
